A study of Mus musculus with 12 samples.

Results

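Transcripts of 9 genes of the fibroblast growth factor (FGF) system were followed in the mouse lateral septum: the receptors Fgfrl1, Fgfr1 and Fgfr2, the secreted ligands Fgf1, Fgf2 and Fgf9, and the FGF homologous factors Fgf12, Fgf13 and Fgf14. They were picked by gene symbol from the 54532 rows of the deposited expression table, with Fgfrl1, a receptor without a kinase, set beside the signalling receptors. The choice was made with the saline and CFA values already known, so values of these 9 genes in that contrast are a description and carry no test. All 9 were among the 13345 genes with enough signal to be analysed, which means at least 1 FPKM in at least 6 libraries. FPKM is a fragment count divided by gene length in kilobases and by library depth. In these values the depth divisor was 0.990 to 1.03 times the reads recovered per library.

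The series title concerns microglial TIA1 and NF-κB in lasting inflammatory pain, and its design sets a saline control against CFA, an abbreviation that in pain studies normally stands for complete Freund's adjuvant, an oil emulsion that inflames the injected tissue. Whole lateral septum was taken at day 3 from mice labelled WT, with 6 libraries injected with saline and 6 with CFA. The sources used here give no strain, age, sex or injection site. Whether each library stands for its own animal is not stated, so intervals and p-values measure the spread between these libraries, which may be partly technical. In whole tissue, fewer cells of a type and less RNA per cell cannot be told apart.

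FGF ligands bind receptor tyrosine kinases together with heparan sulfate chains, and the receptor then signals through adaptors to RAS and the MAP kinases. That cascade switches on ETV transcription factors and the Sprouty and DUSP proteins that damp it. FGFRL1 binds FGF ligands and heparin but lacks the intracellular tyrosine kinase domain, which is why it is often described as a decoy-like receptor. The FGF homologous factors look like FGFs but stay inside the cell, where they bind the tails of voltage-gated sodium channels in neurons. In adult brain, Fgf1 and Fgf9 are made largely by neurons, Fgf2 largely by astrocytes, and FGF receptors are found on both neurons and glia.

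Recovered reads ran from 33.6 to 39.2 M per library. Markers of the lateral septum summed to between 312 and 359 FPKM in saline and between 285 and 327 FPKM in CFA, over 12 listed genes of which 10 passed the filter. Some libraries stood apart from the others. The choroid plexus transcript Ttr was 2259 FPKM in saline 3 and 701 FPKM in saline 5 and at most 66.6 FPKM elsewhere. Of the saline libraries 2, and of the CFA libraries 5, had Xist above 1 FPKM, and the Y-linked Ddx3y was above 1 FPKM in the remaining 4 and 1. By these transcripts, sex was unbalanced between the groups. Markers of striatal projection neurons summed to 180 to 304 FPKM in saline and 179 to 546 FPKM in CFA, with 12 of 12 at positive log2 differences. The part of these differences in the values below was not tested, and values of Fgfrl1 without the libraries concerned are given beside it.

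Among the receptors, Fgfrl1 was lower in every CFA library than in any saline library. Fgfrl1 had a lowest, median and highest value of 6.58, 7.49 and 8.26 FPKM in saline. In CFA the corresponding values were 4.91, 5.75 and 6.16 FPKM. The 2 groups did not overlap, and the libraries nearest to each other were saline 2 and CFA 4. The means were 7.46 ± 0.585 FPKM in saline and 5.58 ± 0.541 FPKM in CFA (SD, n = 6 each), a difference of means of -25.1%. On the log2(FPKM + 1) scale, which understates changes of low values, the difference was -0.36 (SE 0.06, 95% interval -0.50 to -0.22). Each value rested on 508 to 825 reads. Fgfrl1 (ENSMUSG00000008090) lies on chromosome 5, 108692382 to 108706924, plus strand (GRCm38), and none of its exons overlaps an exon of another annotated gene.

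The Fgfrl1 values were examined within the libraries that stood apart. Among libraries with Xist above 1 FPKM, Fgfrl1 was 6.58 and 7.53 FPKM in the 2 of saline and 4.91 to 6.16 FPKM in the 5 of CFA. Among those without, it was 7.08 to 8.26 FPKM in the 4 of saline and 4.95 FPKM in the 1 of CFA. Since the whole ranges are separate, no split of these libraries could make them overlap, so these values describe the libraries and say nothing more. Without saline 3 and 5 the log2 difference was -0.33, and with Xist as a covariate -0.36. The limma adjusted p of Fgfrl1 was 0.309 and 0.417 in these fits. It was 0.115 with all 12 libraries and no covariate, for a gene chosen with this contrast known. Saline 1, CFA 1 and CFA 6 had the highest striatal marker means of the 12 libraries (4.20, 5.02 and 4.58 as mean log2(FPKM + 1)). Without them the log2 difference of Fgfrl1 was -0.36, an alternative chosen after seeing the data. CFA 5, next at 4.12, was kept in that fit, so not all libraries high in these markers were left out. Pan-neuronal markers summed to 1219 to 1390 FPKM in saline and 1153 to 1332 FPKM in CFA, with 12 of 12 at negative log2 differences. Astrocyte markers summed to 842 to 915 FPKM and 745 to 905 FPKM, with 5 positive and 6 negative. Endothelial markers, the list whose group-centred level was most like that of Fgfrl1, summed to 53.4 to 68.6 FPKM in saline and 49.2 to 62.0 FPKM in CFA, with 3 positive and 5 negative. Their relation to Fgfrl1 over the 12 libraries was r = 0.672 (permutation p = 0.0311, adjusted p = 0.257; rho = 0.734, permutation p = 0.0129), 0.541 without the 2 libraries farthest from the median, 0.385 within saline and 0.87 within CFA. Astrocyte markers were close behind, at r = 0.638 with Fgfrl1 (permutation p = 0.0386, adjusted p = 0.288). That relation was 0.632 without the 2 libraries farthest from the median, 0.35 within saline and 0.788 within CFA. Oligodendrocyte markers summed to 869 to 2266 FPKM in saline and 1150 to 2738 FPKM in CFA, with 10 of 10 positive. Ependymal markers summed to 31.4 to 63.7 FPKM and 35.3 to 75.7 FPKM, with 5 of 5 analysed positive. No marker of these lists was at 0, and their part in the Fgfrl1 difference was not tested.

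The signalling receptors showed no such separation. Fgfr1, a receptor tyrosine kinase of neurons and glia, had a lowest, median and highest value of 13.2, 15.0 and 15.6 FPKM in saline and 12.9, 14.1 and 16.0 FPKM in CFA. The ranges overlapped, with a log2 difference of -0.05 (SE 0.06, 95% interval -0.17 to 0.08). Fgfr2, the receptor prominent in astrocytes and oligodendrocytes, spanned 5.02 to 7.55 FPKM around a median of 5.65 FPKM in saline. In CFA it spanned 5.53 to 7.89 FPKM around 6.51 FPKM. Its log2 difference was 0.13 (SE 0.09, 95% interval -0.07 to 0.32), and the highest library of each group was number 5. Fgfr3, the astrocyte-enriched receptor and not one of the 9, was 15.9 ± 1.05 FPKM in saline and 15.8 ± 0.923 FPKM in CFA (SD, n = 6 each; log2 difference -0.01). Fgfr4 was at most 0.218 FPKM in any library.

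**Figure D1:**
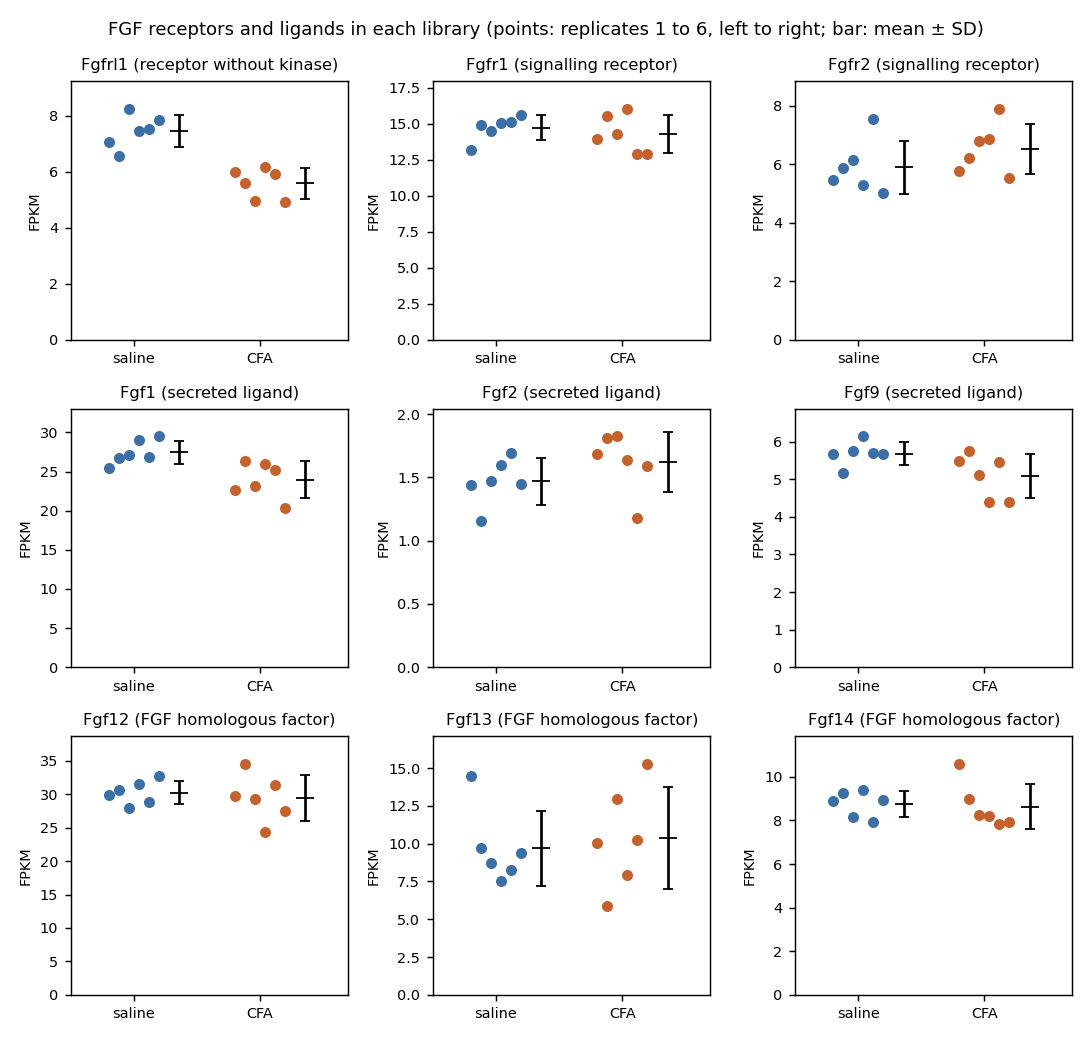
FPKM of the 9 FGF genes in each library (vertical axes, starting at 0), saline in blue and CFA in orange, with the mean ± SD of 6 libraries beside the points. Fgfrl1 is the panel in which the groups do not overlap, with saline at 6.58 FPKM or more and CFA at 6.16 FPKM or less.

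Fgfrl1 was also set against the signalling receptors of the same library. The ratio reuses the Fgfrl1 values above, so its separation between the groups is not a second result. The summed level of Fgfr1, Fgfr2 and Fgfr3 was 36.6 ± 1.67 FPKM in saline and 36.6 ± 2.07 FPKM in CFA (SD, n = 6 each). Fgfrl1 amounted to 18.1% to 23.8% of that sum in saline and 14.0% to 17.0% in CFA, with means of 20.4% and 15.2%. This ratio does not depend on how libraries are scaled to each other. Its log2 value averaged -2.30 ± 0.138 over the 6 saline libraries and -2.72 ± 0.111 over the 6 of CFA (SD), a difference of -0.42. The lower ratio therefore came with a lower numerator and with summed receptors that differed by 0.0604 FPKM.

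**Figure D2:**
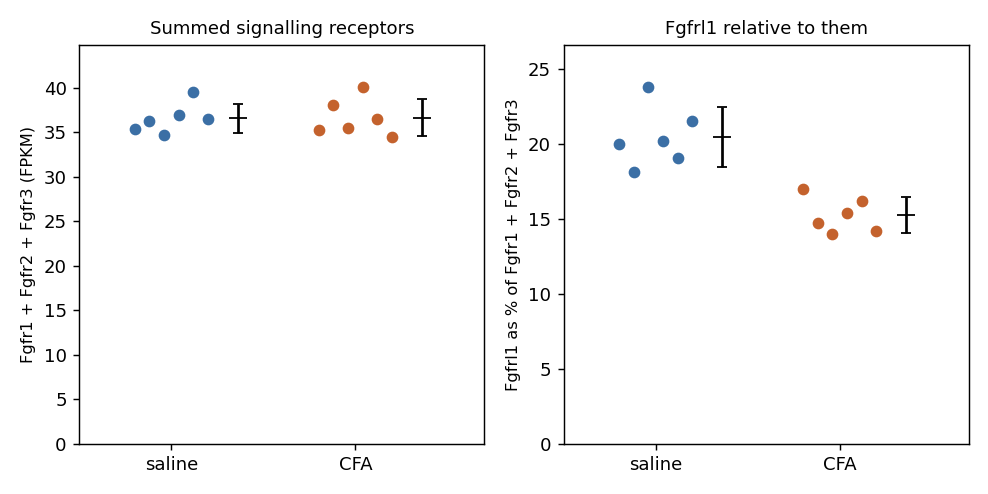
Summed FPKM of Fgfr1, Fgfr2 and Fgfr3 (left) and Fgfrl1 as a percentage of that sum (right) per library, with the mean ± SD of 6 libraries per group. The sums overlap between saline and CFA, while the percentage is 18.1% or more in saline and 17.0% or less in CFA.

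Of the secreted ligands, Fgf1 and Fgf9 had lower means in CFA and Fgf2 a higher one. Fgf1, a ligand that binds all FGF receptors, had a lowest, median and highest value of 25.4, 27.0 and 29.5 FPKM in saline and 20.3, 24.2 and 26.4 FPKM in CFA. In CFA, 4 of 6 libraries lay below the saline range, and CFA 2 and 4 lay within it. The log2 difference of Fgf1 was -0.19 (SE 0.06, 95% interval -0.32 to -0.06), or -12.6% between means. Fgf9, a neuronal ligand that acts on glia, spanned 5.18 to 6.14 FPKM in saline (median 5.68 FPKM) and 4.39 to 5.75 FPKM in CFA (median 5.28 FPKM). Libraries CFA 3, 4 and 6 were below the saline range and the other 3 were inside it, with a log2 difference of -0.14 (SE 0.06, 95% interval -0.27 to 0.00128).

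Fgf2, the basic FGF of astrocytes, was the lowest of the 9 genes. It spanned 1.16 to 1.69 FPKM in saline (median 1.46 FPKM) and 1.18 to 1.83 FPKM in CFA (median 1.66 FPKM). The groups overlapped, with a log2 difference of 0.08 (SE 0.08, 95% interval -0.08 to 0.25) on 299 to 465 reads per library. Fgf2 (chromosome 3, 37348346 to 37410108, plus strand) shares 640 exonic bases, 9.44% of its own exons, with Nudt6, which is transcribed from the opposite strand. The strand setting of the counting is not given in the sources used here, so reads of the shared stretch cannot be told apart. Nudt6 itself was at 0.254 to 0.886 FPKM.

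The FGF homologous factors did not separate the groups. Fgf12 was the most abundant of all FGF genes, at 27.9 to 32.7 FPKM in saline and 24.3 to 34.5 FPKM in CFA (log2 difference -0.04, SE 0.07). Fgf14, mutated in a hereditary ataxia in people, was at 7.91 to 9.41 FPKM in saline and 7.81 to 10.6 FPKM in CFA (log2 difference -0.02, SE 0.07). For both, the CFA libraries spread more widely than the saline libraries and reached beyond them at each end. The coefficient of variation of Fgf12 was 5.77% in saline and 11.7% in CFA, and that of Fgf14 was 6.81% and 12.1%. Over all genes analysed the median coefficient of variation was 8.08% in saline and 10.9% in CFA.

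Fgf13, an X-linked homologous factor that also binds microtubules, varied most among the 9. It had a lowest, median and highest value of 7.51, 9.06 and 14.5 FPKM in saline and 5.86, 10.1 and 15.3 FPKM in CFA. The highest libraries were CFA 6, saline 1 and CFA 3, and the lowest were CFA 2 and saline 4, so the spread ran across both groups. Its coefficient of variation was 25.6% in saline and 32.5% in CFA. The log2 difference of Fgf13 was 0.06 (SE 0.19, 95% interval -0.35 to 0.48), an interval too wide to exclude a change in either direction. The 5 CFA libraries with Xist above 1 FPKM spanned 5.86 to 15.3 FPKM and the 1 without was at 12.9 FPKM. The 4 saline libraries without Xist spanned 7.51 to 14.5 FPKM and the 2 with it were at 8.26 and 9.71 FPKM.

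Read against all genes, 0 of the 9 passed an adjusted p of 0.05 by limma (Benjamini-Hochberg over 13345 genes), where 0.0300% of all genes passed (0.0150% with CFA higher and 0.0150% with CFA lower), and 0 passed by limma's voom on the recovered reads. At an unadjusted p under 0.05 there were 2, Fgfrl1 and Fgf1, beside 7.67% of all genes. Separate ranges were found for 1 of the 9, Fgfrl1, beside 0.495% of all genes in either direction and 0.292% with CFA lower (0.202% with CFA higher). These shares are background only, since the genes were chosen with this contrast known. Of the 9, 6 had negative and 3 positive log2 differences, with a median of -0.04 beside -0.00427 over all genes analysed.

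**Figure D3:**
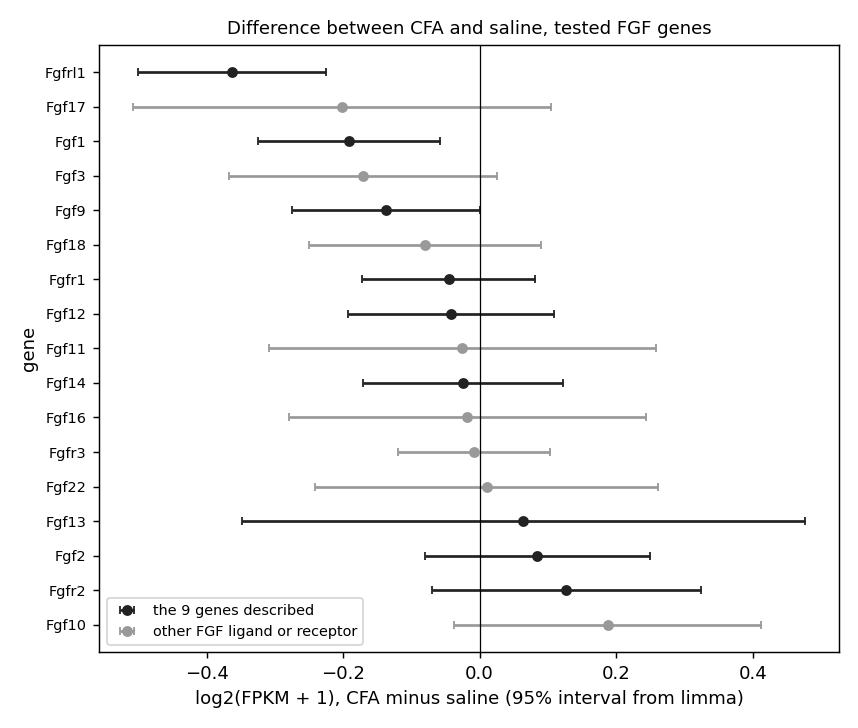
Log2(FPKM + 1) difference, CFA minus saline (horizontal axis), with 95% intervals from limma for the 17 FGF ligands and receptors that were analysed, the 9 described in black and the others in grey. Fgfrl1 is lowest at -0.36 and Fgf10 highest at 0.19. The intervals are not adjusted for the number of genes, and those of Fgfrl1 and Fgf1 lie below 0. The 9 were chosen with this contrast known, so their positions are a description and no test.

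Ordered by level per gene length over all 12 libraries, Fgf12 (mean 29.9 FPKM) and Fgf1 (25.7 FPKM) led the family. Fgf12 exceeded Fgf1 in 11 of 12 libraries, although their ranges overlapped, while Fgf1 exceeded the next, Fgfr3 (15.9 FPKM), in all 12 with no overlap. Fgfr1 (14.5 FPKM), Fgf13 (10.0 FPKM) and Fgf14 (8.70 FPKM) followed, each overlapping its neighbours over the 12 libraries. Next came Fgfrl1 (6.52 FPKM), Fgfr2 (6.20 FPKM) and Fgf9 (5.39 FPKM), whose order differed between the groups. Fgfrl1 was above Fgfr2 in 5 of 6 saline and 1 of 6 CFA libraries. Its range lay wholly above that of Fgf9 in saline and overlapped it in CFA. Fgfr2 was above Fgf9 in 3 of 6 saline and 6 of 6 CFA libraries, with overlapping ranges in both. Fgf9 and Fgf11, the remaining homologous factor, both averaged 5.39 FPKM. Fgf2 (1.54 FPKM) stood among low ligands such as Fgf16 (2.73 FPKM), Fgf3 (2.21 FPKM) and Fgf10 (1.63 FPKM). Fgf4 and Fgf20 had 0 reads in all 12 libraries.

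**Figure D4:**
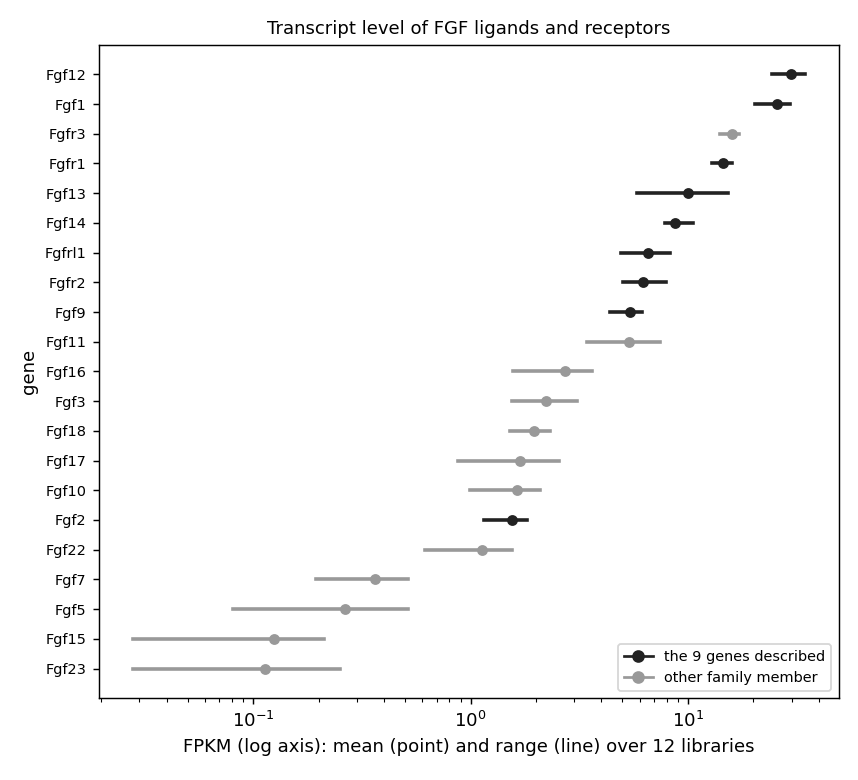
Mean (point) and range (line) of FPKM on a log axis over the 12 libraries for FGF ligands and receptors with a value above 0 in every library, the 9 described in black. Fgf12 and Fgf1 stand at the top at 29.9 and 25.7 FPKM, and Fgf2 lies among low ligands at 1.54 FPKM.

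Other genes of the pathway were read from lists drawn up by textbook role. Of 98 that were analysed, 0 passed the adjusted threshold by limma in either direction, and 0 passed by limma's voom. At an unadjusted p under 0.05 there were 4 higher and 4 lower, beside 3.11% and 4.56% of all genes, and log2 differences were positive for 49 and negative for 49. The remaining secreted ligands, 6 of 15 above the filter, had 2 positive and 4 negative values. Fgf3 was 2.41 ± 0.419 FPKM in saline and 2.02 ± 0.314 FPKM in CFA (SD, n = 6 each), with a log2 difference of -0.17 (limma adjusted p = 0.707). Fgf10 was at 0.19 (limma adjusted p = 0.722) and Fgf17 at -0.20 (limma adjusted p = 0.779). Fgf11 was at -0.03 (limma adjusted p = 0.978).

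Receptors, co-receptors and binding partners outside the 9, 8 of 12 above the filter, lay between -0.04 and 0.13. The values with the smallest p were 0.13 for Flrt3, a membrane protein that binds FGF receptors, -0.04 for Flrt2 and -0.03 for the FGF carrier Fgfbp3, with limma adjusted p of 0.847, 0.930 and 0.974. The co-receptor gene Kl was below the filter. It averaged 4.60 ± 7.42 FPKM in saline and 0.729 ± 0.240 FPKM in CFA, and it is also a choroid plexus marker, as is Ttr above.

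Heparan sulfate proteoglycans and the enzymes that build their chains, 26 of 28 above the filter, had 10 positive and 16 negative values with a median of -0.02. Gpc4, a cell surface glypican released by astrocytes, was 4.80 ± 0.564 FPKM in saline and 3.89 ± 0.280 FPKM in CFA (SD, n = 6 each; log2 difference -0.24, limma adjusted p = 0.308). The basement membrane proteoglycan Hspg2 was at -0.17 and the chain polymerase Ext2 at -0.09 (limma adjusted p = 0.760 and 0.779). Adaptors and the RAS-MAPK relay, 27 of 27 above the filter, had 18 positive and 9 negative values with a median of 0.03. Stat3 was at 0.11 (limma adjusted p = 0.578), and the adaptors Shc1 and Shc3 were at 0.19 and -0.17 (limma adjusted p = 0.646 and 0.715).

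Targets and feedback inhibitors of FGF signalling gave 12 positive and 7 negative values among 19. The immediate early genes Egr1 (26.9 ± 2.05 to 36.5 ± 8.53 FPKM; SD, n = 6 each) and Fos, which respond to many stimuli, were at 0.39 and 0.43 (limma adjusted p = 0.419 and 0.638). Spry1, a Sprouty feedback inhibitor, was at -0.16 (limma adjusted p = 0.623). Dusp6 and Etv5, commonly used as readouts of FGF signalling and named here after their values were seen, were at 0.05 and 0.02, with 95% intervals of -0.11 to 0.20 and -0.11 to 0.16. Others of the list, also named after their values were seen, lay farther from 0. Dusp5 was at 0.19 (95% interval -0.002 to 0.38), Etv4 at -0.14 (-0.30 to 0.02) and Il17rd at -0.12 (-0.24 to 0.005). Partners of the homologous factors, 11 of 11 above the filter, had a median of -0.02. The sodium channel subunit Scn2b (-0.13) and the scaffold Mapk8ip2, which binds homologous factors (-0.14), had the smallest p (limma adjusted p = 0.567 and 0.578).

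Variation among libraries was compared after each group's mean was subtracted, over 36 pairs of the 9 genes. None of the 36 passed a Benjamini-Hochberg adjusted p of 0.05. The strongest was between Fgf1 and Fgf13, with Pearson r = -0.815 (permutation p = 0.0042, adjusted p = 0.151) and Spearman rho = -0.825 (permutation p = 0.00348) over 12 libraries, 100000 permutations within groups, two-sided. It was -0.674 within saline and -0.872 within CFA, and -0.656 without the 2 libraries farthest from the median of Fgf1. Fgfr1 and Fgf13 gave r = -0.772 (permutation p = 0.0105, adjusted p = 0.189; rho = -0.818, permutation p = 0.0051), and r = -0.701 without 2 libraries. Fgfr1 and Fgf1 varied in the same direction, with r = 0.704 (permutation p = 0.0276, adjusted p = 0.248; rho = 0.818, permutation p = 0.00488), and r = 0.613 without 2 libraries.

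**Figure D5:**
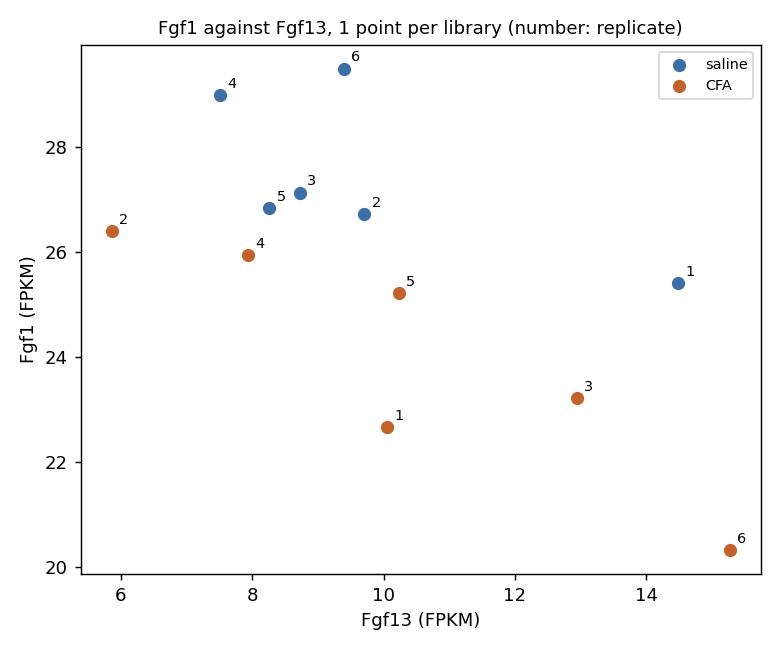
Fgf1 against Fgf13 in FPKM, 1 point per library, with saline in blue, CFA in orange and the replicate number beside each point (axes do not start at 0). CFA 6 and saline 1, the highest of their group in Fgf13 at 15.3 and 14.5 FPKM, are the lowest of their group in Fgf1, at 20.3 and 25.4 FPKM. CFA 3, the next CFA library in Fgf13 at 12.9 FPKM, is at 23.2 FPKM in Fgf1, above CFA 1 at 22.7 FPKM.

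The same genes were set beside the mean level of 11 cell type marker lists, 99 relations in all, and 0 passed the adjusted threshold. Fgf13 and astrocyte markers gave r = -0.867 (permutation p = 0.00156, adjusted p = 0.0861; rho = -0.748, permutation p = 0.0142). Without the 2 libraries farthest from the median it was -0.859. Fgfr1 and lateral septum neuron markers gave r = 0.838 (permutation p = 0.00176, adjusted p = 0.0861; rho = 0.769, permutation p = 0.00567), and 0.844 without 2 libraries. Fgf1 and astrocyte markers gave r = 0.841 (permutation p = 0.00261, adjusted p = 0.0861; rho = 0.804, permutation p = 0.0129), and 0.659 without 2 libraries, with 0.455 within saline and 0.962 within CFA. Next by permutation p came Fgf13 and lateral septum neuron markers, at r = -0.804 (permutation p = 0.00378, adjusted p = 0.0936; rho = -0.776, permutation p = 0.00456). Without 2 libraries it was -0.71. Fgfr1, Fgf1 and Fgf13, the genes of the pairs above, gave r = -0.746, -0.682 and 0.591 with striatal projection neuron markers. Their permutation p were 0.0195, 0.0438 and 0.088 (adjusted p = 0.215, 0.288 and 0.436). Without 2 libraries these relations were -0.63, -0.548 and 0.349. The part of striatal, astrocyte or lateral septum markers in the pairs was not tested. Both values of each relation come from the same libraries.

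The genes whose group-centred pattern over the 12 libraries was most like that of Fgfrl1 were Zfp768 (r = 0.875), Hadha (0.862), Rcc1l (0.860), Slc39a12 (0.859) and Hapln4 (0.853). They are the highest by this measure among the 13345 genes after predicted and Riken symbols were passed over, and are given as a description. Of these, Hapln4, a link protein of perineuronal nets, was 25.5 FPKM in saline and 20.7 FPKM in CFA (log2 difference -0.29), and the others lay between -0.06 and 0.06. The closest genes were Ccdc92 for Fgfr1 (r = 0.961), Kif13b for Fgfr2 (0.923), Trim26 for Fgf1 (0.882), Tmem17 for Fgf2 (0.875) and Nxt2 for Fgf9 (0.914). For the homologous factors they were Trove2 for Fgf12 (0.920), Phf24 for Fgf13 (0.972) and Zfp318 for Fgf14 (0.887).

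In the annotation, the genes of the 9 differ in how far their reads could be shared with neighbours. Fgf1 shares no exonic base with another gene, but its deposited length of 4648 bases differs from the 5463 exonic bases of GENCODE M21, and dividing by the longer length would lower its FPKM in every library alike. Fgfr2 (chromosome 7, 130162451 to 133123350, minus strand) shares 314 exonic bases, 3.04% of its exons, with Ctbp2 on the same strand, which averaged 6.54 FPKM. The annotated span of Fgfr2, over all its transcripts, is 2960.9 kb, against 14.5 to 699.2 kb for the others of the 9. Fgfr1 (chromosome 8, 25513654 to 25575718, plus strand) and Fgf14 (chromosome 14, 123977907 to 124677127, minus strand) overlap antisense transcripts Gm16159 and Gm28932, each with at most 11 reads in a library. Fgf9 (chromosome 14, 58070547 to 58112720, plus strand), Fgf12 (chromosome 16, 28160098 to 28753068, minus strand) and Fgf13 (chromosome X, 59062145 to 59568071, minus strand) share no exonic base with another annotated gene. Fgf13 has 9 annotated transcripts and Fgf12 has 6, and the gene-level values do not separate them.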

How the data were processed

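Whole lateral septum RNA was sequenced as paired reads of 150 bases on an Illumina NovaSeq, per the labels' protocols. Reads were aligned with HISAT2 2.0.5 to mm10, per the submitters' processing notes. The sources used here name no counter, strand setting or annotation release. The authors deposited FPKM per gene and library with the gene length in bases, per the file headers. FPKM times length took whole steps, from which reads were recovered, with 100% of nonzero values within 0.01 read of a whole number. Median ratio factors computed on the deposited FPKM were 1.005 in every library, so another median ratio scaling changes nothing. Columns WT_CTL and WT_CFA were matched to the saline and CFA titles by group and number. A further 6 columns of per-sample values matched no sample by label and were not used. Of the IDs, 54495 were in GENCODE M21 (GRCm38), 98.3% of them with the same start and end.

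Groups were compared with limma 3.58.1 (R 4.3.3), two-sided, with a mean-variance trend, after taking log2(FPKM + 1) of genes reaching 1 FPKM in 6 or more libraries. The fit was checked on simulated data. Named genes were the 9 genes, the 3 of each pathway list with the smallest p, the genes most correlated with each of the 9 (5 for Fgfrl1, passing over predicted and Riken symbols), and Xist, Ttr and Nudt6. A gene that this rule names is not reported here. Members and lists were chosen with earlier results of these data known. Samples were not treated as paired by replicate number. Same-number correlations of deviations were -0.0118 to 0.159, 2 of 6 above 0.1, and different-number ones -0.3825 to 0.3324. These values do not settle whether the numbers pair the samples. No 2 libraries of a group agreed within counting error (lowest chi-square per degree of freedom 7.22). Tables used Python 3.11.15, pandas 2.3.3 and numpy 2.4.6.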

Additional observations from a re-analysis of the deposited data

Results flagged for a closer look

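Each group of 6 libraries was searched for a highest or lowest value whose gap to its neighbour exceeded Dixon's 95% critical share of the group's range. Of 20 groups examined, over the 9 genes and the Fgfrl1 ratio, 2 held such a library, where chance gives about 1 in 20. Fgf13 was 14.5 FPKM in saline 1, against 9.71 FPKM in the next highest saline library (gap 0.685 of the range). That library was also the lowest saline library in astrocyte markers (mean log2 of 5.50) and the highest in striatal markers (4.20). Fgf2 was 1.18 FPKM in CFA 5, against 1.59 FPKM in the next lowest CFA library (gap 0.64 of the range).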

How the results depend on the processing

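The log2 difference of Fgfrl1 stayed below 0 in all 23 alternatives, between -0.41 and -0.33. That of the Fgfrl1 ratio lay between -0.45 and -0.38 in 17. Since the ranges of both are separate, no fit that leaves out libraries could change these signs. Filter, trend and replicate block settings leave the difference unchanged by construction, and recovered reads give the same ratio. These counts are therefore no measure of support. The ratio from recovered reads and the fits without saline 1, CFA 1 and CFA 6 were chosen after seeing the data. Differences of Fgfr1, Fgf1 and Fgf9 stayed negative and those of Fgfr2 and Fgf2 positive throughout. Fgf12, Fgf13 and Fgf14 changed sign in 1, 3 and 2 alternatives. The count of the 9 genes past the threshold was 0 in every alternative run, as was that of the pathway genes. Over all genes, 4 passed, against 2 without a filter, 2 without a variance trend, 1 with Xist as a covariate, 1 without saline 1, CFA 1 and CFA 6 and 1 with a replicate block; leaving out 1 library gave 1 to 11, with 11 without saline 3 and 10 without CFA 1. The cause was not tested. With the replicate block the log2 difference of Fgfrl1 was -0.36, and 5 of 12 libraries correlated best with their own number. Split by direction, 3 were higher and 1 lower as TPM, against 2 and 2. The ratio has no pseudocount, filter or scaling alternative, and Fgf2 has none with the filter at 5 FPKM. Depth limits Fgf2 most, at 299 to 465 reads.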
